A study of Homo sapiens with 6 samples.

Results

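The 10 genes described here encode the AP-1 proteins and other immediate early factors: the FOS family (FOS, FOSB, FOSL1, FOSL2), the JUN family (JUN, JUNB, JUND), the related bZIP factor ATF3, and MYC and EGR1. Chromatin accessibility around them was read from DNase-seq peaks. All peaks sharing at least 1 bp were merged across 6 libraries, and every merged region with a base within 100 kb of one of the 10 gene starts (hg19) was taken. This gave 218 regions of 81216 in the whole series. The rule uses positions alone, though the genes and windows were picked with earlier results of these data known. No region fell in the windows of 2 genes.

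The cells were A549, a human lung adenocarcinoma line. A group of 3 libraries came from cells given 100 nM dexamethasone, a synthetic ligand of the glucocorticoid receptor, for 1 h. The other 3 libraries came from cells given the vehicle, 0.02% ethanol, for 1 h. Cells of both groups had been grown to near confluence. Separate cultures are not named in the labels, and differences among libraries of a group may be technical.

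AP-1 is a dimer of a JUN protein with a FOS, ATF or second JUN protein, joined through leucine zippers, and it binds the element TGANTCA. FOS, JUNB, EGR1 and their like are called immediate early genes because growth factors and stress raise their transcription within minutes, without new protein synthesis. The ligand-bound glucocorticoid receptor binds its own DNA elements and is also known for restraining AP-1 activity, a relation much studied in inflamed epithelium. DNase-seq reports where chromatin is open to nuclease, not how much RNA a gene makes. It also does not show which protein occupies a site.

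Each library has its own list of 58281 to 61344 peaks, of which 167 to 188 lay in the 218 regions. Read depth is unknown, since the lists hold no counts. Where a library has no peak, its signal stayed under the threshold of the caller (the lowest −log10 q of a list was 2.51 to 2.71), and the site may still be open. The fold enrichment of a peak is the authors' value against the caller's background for that library and serves only to describe and rank peaks within a list. With 3 libraries against 3 an exact two-sided permutation test cannot go below p = 0.1, so no p-value is given.

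The promoters of FOS, JUN and EGR1 are shown first, because the starts of all 3 lay in regions called under both treatments and these are textbook examples of rapidly induced promoters. Each line gives the 250 bases before the start, 5′ to 3′ on the gene's strand, from RefSeq (GRCh38.p14), with matches to any of the 10 motifs named below in capitals. The FOS stretch is chr14:75278578-75278827 (plus strand), that of JUN chr1:58784048-58784297 (minus strand) and that of EGR1 chr5:138465229-138465478 (plus strand). These GRCh38 positions are not comparable with the hg19 positions of the peaks.
FOS: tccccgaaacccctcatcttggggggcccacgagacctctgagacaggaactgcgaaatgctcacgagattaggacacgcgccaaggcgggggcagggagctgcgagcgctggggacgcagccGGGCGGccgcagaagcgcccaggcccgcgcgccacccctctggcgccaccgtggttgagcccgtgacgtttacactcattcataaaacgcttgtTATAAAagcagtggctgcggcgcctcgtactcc
JUN: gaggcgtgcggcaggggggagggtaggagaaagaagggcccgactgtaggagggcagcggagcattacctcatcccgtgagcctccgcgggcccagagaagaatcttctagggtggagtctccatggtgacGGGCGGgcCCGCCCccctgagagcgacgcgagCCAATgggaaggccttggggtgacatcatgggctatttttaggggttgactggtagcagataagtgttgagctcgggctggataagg
EGR1: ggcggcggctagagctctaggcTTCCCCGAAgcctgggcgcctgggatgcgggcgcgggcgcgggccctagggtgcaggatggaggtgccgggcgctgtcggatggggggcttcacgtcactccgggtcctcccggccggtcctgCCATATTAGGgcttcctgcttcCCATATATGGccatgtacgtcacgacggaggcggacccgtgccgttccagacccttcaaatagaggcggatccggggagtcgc

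In the EGR1 promoter the 2 tracts of capitals nearest the start are CArG boxes, CCATATTAGG at 105 to 96 bases and CCATATATGG at 83 to 74 bases before the start. The CArG box is the element bound by serum response factor, the factor through which serum and growth factors act on this gene. A CArG box was found in 1.16% of the 35116 promoters of this length in the table. EGR1 was the only gene with one among the 9 listed starts of the 8 genes that the table holds (ATF3 has 2 listed starts). That count covers only stretches of this length. Bases farther upstream were not searched, so a CArG box lying there, at FOS or another gene, would have been missed. The first capitals of the EGR1 line mark TTCCCCGAA, a match to the STAT pattern TTCNNNGAA, which 6.57% of promoters hold.

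The FOS line holds a TATA element (TATAAA) at 33 to 28 bases before the start and a GC box (GGGCGG) at 127 to 122. TATAAA occurred in 10.7% of all promoters and was found for FOS, FOSB, JUNB and the second listed start of ATF3, in the last of these at 230 to 225 bases. In the JUN line the capitals are 2 GC boxes, GGGCGG and its reverse complement CCGCCC, and a CCAAT element at 87 to 83 bases. GC boxes occurred in 42.6% of all promoters and CCAAT in 32.0%. JUND held the CRE, TGACGTCA, at 200 to 193 bases, a match found in 1.65% of promoters.

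The other patterns searched on both strands were the AP-1 element TGANTCA (in 6.57% of promoters), the glucocorticoid receptor site, a palindrome with a spacer of 3 free bases (0.327%), the E-box CACGTG (6.34%) and the EGR element GCGTGGGCG (0.72%). None of these 4 had a match in the 9 member stretches, which says only that these letters are not in these windows. CCAAT and its reverse complement, and the GC box and the EGR element, can overlap each other or other patterns.

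Most of the called regions around these genes were called in every library. Of the 218 regions, 139 (63.8%) had a peak in all 6 libraries, against 49.2% of all merged regions. Another 26 (11.9%) had a peak in a single library, against 18.9% of all. With all regions pooled, peaks near these genes also had a higher median strength, which was not tested. Strength was measured as the percentile of −log10 q within a library's list, averaged over the libraries with a peak. Its median was 51.8 over the 218 regions and 33.5 over all merged regions. Near the starts the share was higher: 22 of 26 regions (84.6%) within 2.5 kb of a start were called in all 6 libraries, against 117 of 192 (60.9%) farther away. The same split was not made around other gene starts, so this share is not shown to be particular to these genes.

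**Figure D1:**
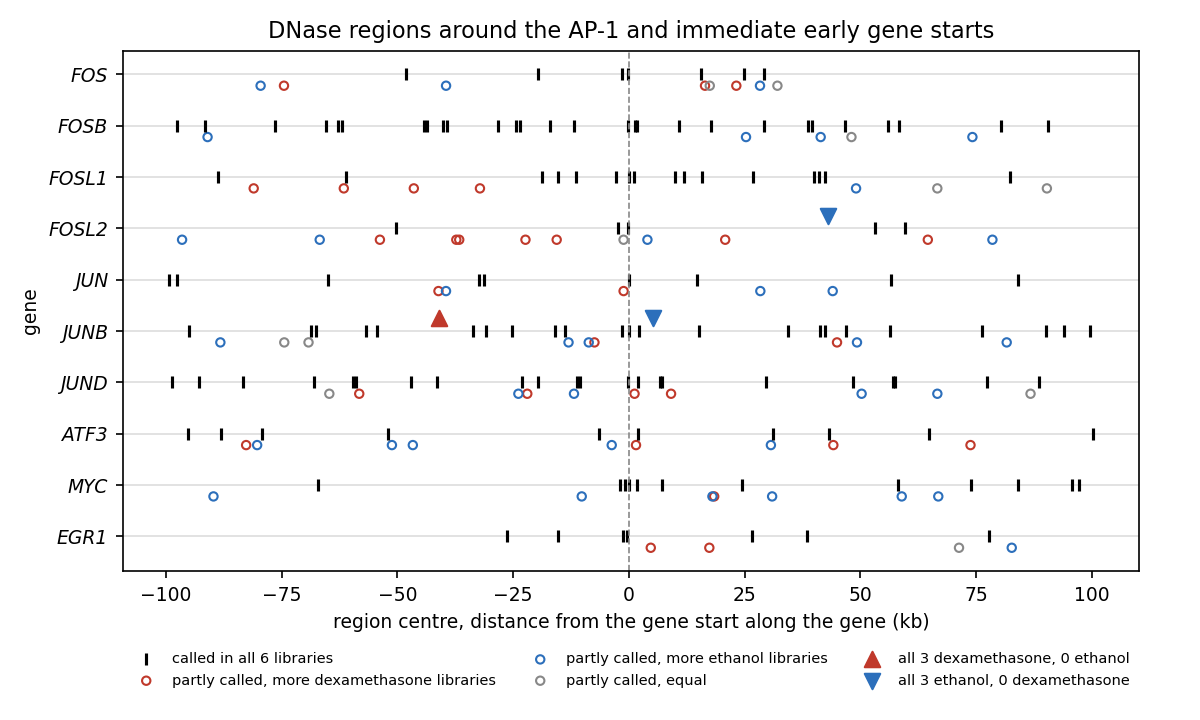
Each mark is a merged DNase region, placed by the distance of its centre from the gene start (kb, x axis, negative upstream) in the row of its gene (y axis). Black ticks are the 139 regions called in all 6 libraries, open circles are partly called regions, and triangles are the 3 regions called in all libraries of 1 treatment and in none of the other, at JUNB and FOSL2.

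The windows differed widely in how many regions they held. JUNB had 34, FOSB 33 and JUND 32, all on chromosome 19. FOSL1 had 23, ATF3 and MYC 19 each, FOSL2 18, FOS 15, JUN 14 and EGR1 11. Many of these regions may belong to other genes: the RefSeq table (GRCh38) lists 14 protein-coding genes within 100 kb of FOSL1 and of JUNB, 8 near FOSB and 7 near JUND. It lists 4 near EGR1, 2 near FOSL2 and ATF3, 1 near JUN (MYSM1) and 0 near FOS and MYC. These neighbours were counted within 100 kb of either end of the gene, not of its start alone, so some may lie outside the windows. By this count a neighbour of ATF3 is BATF3, which encodes a further AP-1 protein. Whether BATF3 lies inside the ATF3 window was not determined. FOSB had the largest share of its regions called in all 6 libraries, 28 of 33 (84.8%), and FOSL2 the smallest, 5 of 18 (27.8%).

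The number of called regions per library did not separate the treatments at any of the 10 genes. At MYC, whose product drives cell growth and is itself controlled by many distant enhancers, 12, 16 and 14 regions were called with dexamethasone and 17, 16 and 16 with ethanol. The means were 14 ± 2.0 and 16.3 ± 0.58 (SD, n = 3 each), and the groups met at 16. That difference of −2.33 regions was −0.67 in windows of 50 kb. At FOSL1, which encodes the FOS-family protein Fra-1, 22, 20 and 17 regions were called with dexamethasone and 18, 18 and 19 with ethanol, so the dexamethasone libraries lay on both sides. At FOSB the counts were 29, 30 and 28 with dexamethasone and 30, 32 and 30 with ethanol, meeting at 30.

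The remaining 7 genes had differences between −1 and 0.33 regions. JUN had 11, 11 and 12 regions with dexamethasone and 11, 14 and 12 with ethanol. FOS had 12, 9 and 9 against 11, 12 and 7, with equal means of 10. EGR1, ATF3 and JUND also had equal means under both treatments. Over all 10 windows, 173 ± 12.3 regions were called with dexamethasone and 177.3 ± 3.8 with ethanol (SD, n = 3 each). Dexamethasone replicate 3 had the fewest, 159, and the other 5 libraries had 173 to 182. The difference of −4.33 regions turned to 2.67 more with dexamethasone when that replicate was left out, and was −0.333 in windows of 50 kb.

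**Figure D2:**
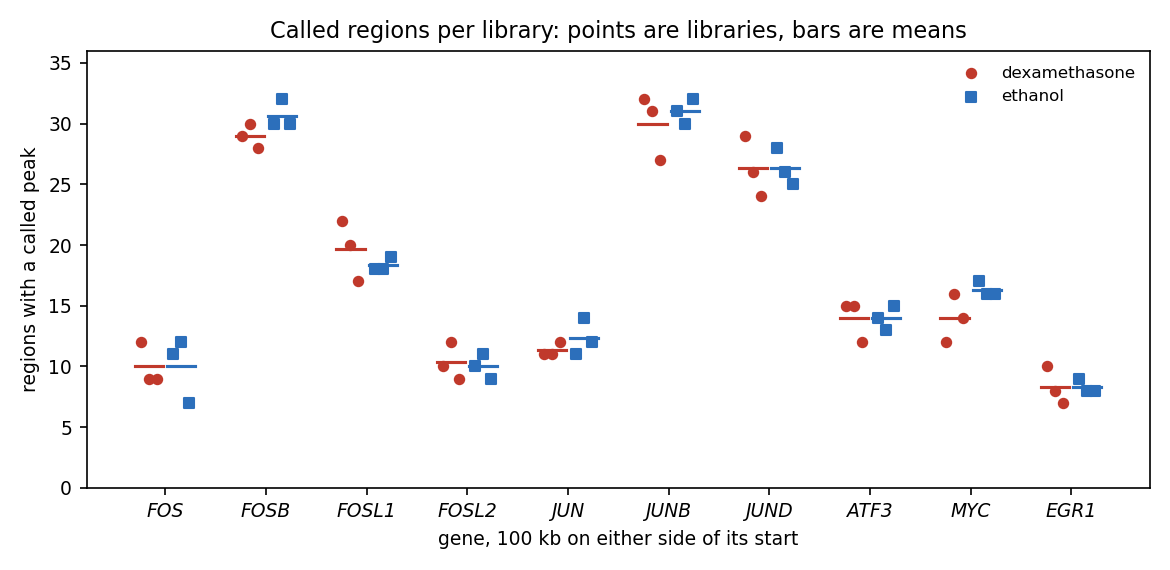
The number of regions with a called peak within 100 kb of each gene start (y axis) is shown for each gene (x axis), with 1 point per library and a bar for the mean of 3. At every gene the dexamethasone and ethanol points overlap or meet.

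The start itself was open at 9 of the 10 genes. FOS, FOSB, FOSL1, FOSL2, JUN, JUNB, JUND, MYC and EGR1 each had their start inside a region called in all 6 libraries. These regions were 372 bp (JUNB) to 999 bp (EGR1) wide, had mean percentiles from 59.8 (JUNB) to 91.0 (FOSB), and folds from 4.66 (MYC) to 11.1 (FOSL1) in single libraries. In none of the 9 did the folds of the treatments separate, nor did their ranks.

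The FOS start, at position 75745481 of chromosome 14 (hg19), lay in a region from 75744939 to 75745709. Its folds were 8.27, 8.97 and 9.01 with dexamethasone and 9.64, 9.74 and 8.72 with ethanol. Ethanol replicate 3 lay among the dexamethasone libraries. The summit, the base of highest signal, lay 294 to 273 bases before the start in the 6 libraries, a range of 21 bases. A second region called in all libraries, centred 1.37 kb upstream, had mean folds of 6.60 ± 0.82 with dexamethasone and 6.0 ± 0.28 with ethanol (SD, n = 3).

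The JUN start (chromosome 1, 59249785) lay in a region from 59249564 to 59250151 with folds of 9.06, 9.96 and 9.98 with dexamethasone and 9.96, 10.5 and 10.2 with ethanol. The highest dexamethasone values reached the lowest ethanol value. Its summit was the most variable of the 9, from 115 to 11 bases before the start. JUNB (chromosome 19, 12902310) had the weakest start region by percentile, at 12902070 to 12902441. The folds there were 5.35, 5.66 and 4.81 with dexamethasone and 5.38, 5.35 and 5.78 with ethanol. JUND, which unlike the other JUN genes is expressed steadily in many cells, had 8.72, 8.15 and 8.53 against 7.81, 8.96 and 8.32 at 18392205 to 18393010 of chromosome 19.

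Among the FOS relatives, FOSB (chromosome 19, 45970757 to 45971338) had folds of 8.49, 8.97 and 9.08 with dexamethasone and 8.58, 8.58 and 9.02 with ethanol. FOSL1 (chromosome 11, 65667720 to 65668274) had 11.1, 9.97 and 9.39 against 9.79, 9.92 and 9.44, with dexamethasone replicate 1 the highest. FOSL2, which encodes Fra-2 (chromosome 2, 28615197 to 28615947), had 5.94, 6.05 and 5.51 against 5.99, 6.14 and 5.48. In both treatments of FOSL2 the third replicate was the lowest.

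The EGR1 start (chromosome 5, 137801181) lay near the downstream end of the widest start region, 137800258 to 137801256. Folds were 7.01, 7.90 and 8.20 with dexamethasone and 7.12, 7.63 and 6.88 with ethanol, and the summit stood 439 to 403 bases before the start. The 250 bases of the EGR1 line printed above are shorter than the 923 bases of this region that precede the hg19 start. MYC (chromosome 8, 128748047 to 128748662) had folds of 5.53, 5.15 and 4.66 against 4.97, 5.47 and 4.74, and its summit lay 110 to 140 bases inside the gene. MYC also had the most regions within 2.5 kb of the start, 4, all called in every library.

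**Figure D3:**
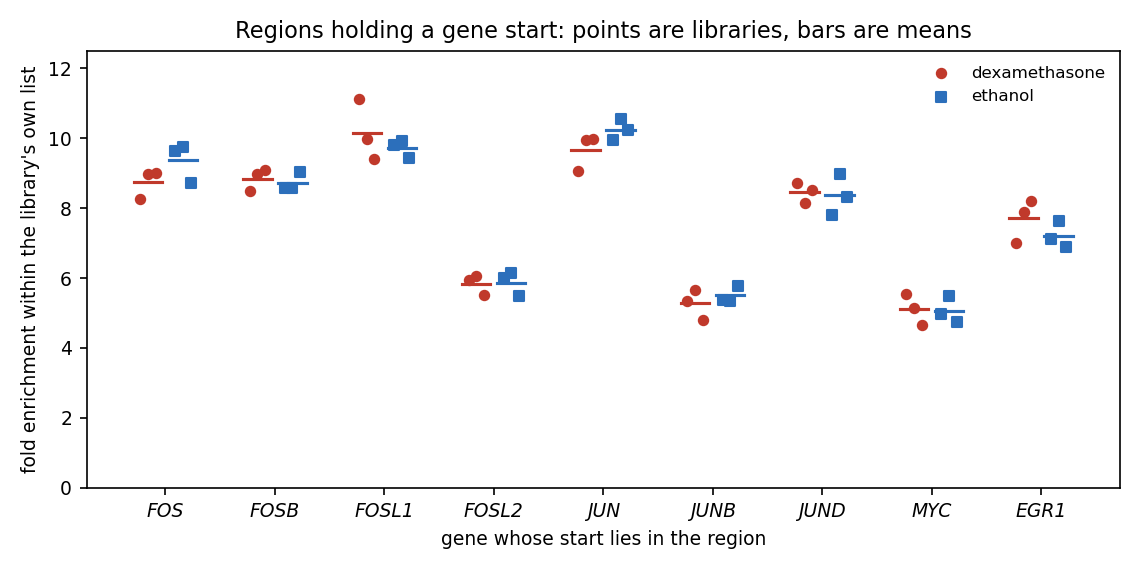
Fold enrichment (y axis, the authors' value within each library's own list) is plotted for the 9 regions that hold a gene start (x axis), with 1 point per library and a bar for the mean of 3. Points of both treatments overlap or touch at all 9 genes, and FOSL2, JUNB and MYC lie lowest.

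ATF3, a stress-induced bZIP protein that dimerises with JUN proteins, was the exception. No region held the start used for it (chromosome 1, 212738676). The nearest region began 1.40 kb downstream, at 212740078 to 212740364, and had a peak in dexamethasone replicates 1 and 2 (folds 6.22 and 5.17) and in no other library. Only 97 bp from it lay a region called in all 6 libraries, with folds of 5.25 ± 0.75 with dexamethasone and 6.44 ± 1.61 with ethanol (SD, n = 3). RefSeq lists 2 ATF3 starts 49.6 kb apart (GRCh38). Positions were not converted between builds, so which of the 2, if either, is the start used here was not determined. Whether any hg19 region holds a RefSeq start of ATF3 was not determined either.

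A region open by call in every dexamethasone library but absent from the 3 ethanol lists occurred once, at JUNB. It is 1 of 218 regions (0.459%), against 1.1% of all merged regions. The site lay 41.0 kb upstream of the JUNB start, at 12861005 to 12861545 of chromosome 19 (541 bp). Its folds were 7.02, 7.29 and 5.84, and its −log10 q values were 24.5, 25.3 and 16.6. These put it at percentiles 57.8, 58.8 and 46.0 of the 3 lists, with a mean of 54.2. The median over all 897 dexamethasone-only regions of the series was 24.7, and 90 of them lay above 50. The nearest ethanol peak was 6.81 kb away, as was the nearest region called in all 6 libraries. Summits of the 3 peaks lay within 97 bp of each other. Whether this site acts on JUNB or on one of its 14 listed neighbours was not tested.

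Regions with the reverse pattern numbered 2 (0.917%, against 0.662% of all merged regions). At JUNB such a region lay 5.17 kb downstream of the start, at 12907359 to 12907606, with folds of 4.06, 5.57 and 4.85 in the ethanol libraries. A dexamethasone peak lay 2.43 kb away. At FOSL2 the region lay 43.1 kb downstream, at 28658708 to 28659020 of chromosome 2, with folds of 4.39, 4.48 and 4.23. Their mean percentiles, 29.5 and 27.2, were below that of the dexamethasone-only site and above the median of 19.9 over the 538 ethanol-only regions of the series. JUNB was thus the only one of the 10 windows with a region of each kind.

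With a library left out, fewer calls are required, so such counts can grow. The dexamethasone-only count was 2, 1 and 3 without dexamethasone replicates 1, 2 and 3, and 2, 4 and 2 without ethanol replicates 1, 2 and 3. The share over all regions was then 1.52 to 2.17%. The ethanol-only count was 2, 4 and 3 without dexamethasone replicates 1, 2 and 3, where the shares over all regions were 1.17%, 1.34% and 1.33%. It was 4, 2 and 8 without ethanol replicates 1, 2 and 3, where those shares were 1.84%, 1.29% and 1.4%. The 3 sites described above keep their pattern in these cases by construction, so this is no check of them. Leaving out a library cannot add a call for the other treatment.

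**Figure D4:**
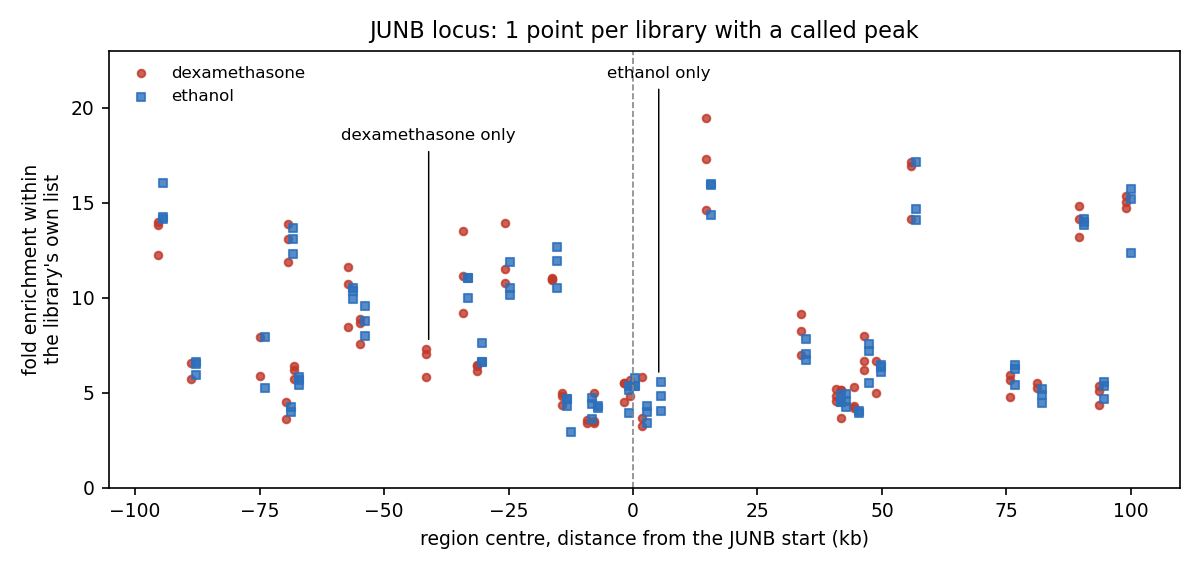
Fold enrichment (y axis, within each library's own list) of the regions around the JUNB start is plotted against distance from the start (kb, x axis), with 1 point per library that called a peak, shifted slightly sideways by treatment so that both can be seen. The dexamethasone-only region 41.0 kb upstream has 3 red points and the ethanol-only region 5.17 kb downstream 3 blue points, while most other regions carry both colours.

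Regions called in all dexamethasone libraries and in 1 ethanol library numbered 5 (2.29%, against 1.23% of all merged regions). FOSL2 held 2 of them, 36.6 and 22.3 kb upstream, with the single ethanol peak in replicate 2 in both. At JUN the region was centred 1.13 kb upstream of the start, at 59250801 to 59251037, with folds of 3.48, 3.70 and 2.88 under dexamethasone and 3.39 in ethanol replicate 2. Its mean percentile of 9.78 placed it among the weak peaks. At JUND it was centred 1.23 kb inside the gene, with folds of 3.66, 3.58 and 4.49 against 2.87 in ethanol replicate 1. At FOSL1 it lay 32.2 kb upstream, with 5.30, 5.64 and 7.43 against 5.80 in ethanol replicate 3. The lone ethanol fold lay within the dexamethasone range at JUN, FOSL1 and the first FOSL2 site, and below it at JUND. At the second FOSL2 site it was 4.96, above all dexamethasone folds (3.91, 3.22 and 4.66).

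The opposite arrangement, all ethanol libraries and 1 dexamethasone library, was found 3 times (1.38%, against 1.74%). At JUN a region 28.4 kb downstream had folds of 6.95, 7.26 and 7.71 with ethanol and 5.93 in dexamethasone replicate 3. At ATF3 a region 80.3 kb upstream had 4.55, 6.29 and 5.27 with ethanol and 4.91 in dexamethasone replicate 2. At MYC a region 89.7 kb upstream had 4.15, 4.02 and 4.73 with ethanol and 3.42 in dexamethasone replicate 2. In all, 30 regions (13.8%, against 19.7% of all) had a peak in more dexamethasone than ethanol libraries, and 38 (17.4%, against 22.5%) the reverse. A region called in 1 library counts here as leaning. MYC had 6 regions leaning to ethanol and 1 the other way, JUNB 6 and 3, FOSB 4 and 0, ATF3 5 and 4, and JUN 3 and 2. FOSL2 leaned to dexamethasone with 7 against 5, FOSL1 with 4 against 1 and EGR1 with 2 against 1. JUND had 4 each way and FOS 3 each way.

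At every gene the strongest region by percentile lay over 2.5 kb from the start, and folds there overlapped between treatments except at FOSB. For FOS it was centred 19.7 kb upstream, at 75725376 to 75726151, with folds of 14.4, 15.4 and 15.2 with dexamethasone and 14.9, 15.0 and 15.4 with ethanol. For EGR1 it lay 77.8 kb downstream, with 14.7, 14.8 and 13.4 against 11.3, 14.5 and 13.3, ethanol replicate 1 being low. At ATF3 a region 6.47 kb upstream had 14.6, 14.3 and 11.9 against 13.8, 15.2 and 12.9. It was the nearest to its start among the leading distal regions of the 10 genes.

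For JUN the leading region lay 84.1 kb downstream, with folds of 20.4, 19.9 and 17.2 against 17.1, 18.9 and 18.0. The leading distal regions of FOSB (97.5 kb upstream), FOSL1 (61.0 kb upstream), FOSL2 (53.2 kb downstream), JUNB (90.0 kb downstream), JUND (41.5 kb upstream) and MYC (95.7 kb downstream) had mean percentiles from 81.4 (FOSL2) to 99.2 (FOSB). At FOSB the folds were 20.4, 20.3 and 19.7 with dexamethasone and 21.1, 20.6 and 20.9 with ethanol, a small gap near the top of every list.

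To compare the strength of open regions, the 39934 regions called in all 6 libraries were ranked by fold within each library, so that every library ranked the same regions. Of the 139 such regions near the 10 genes, 7 (5.04%, against 6.2% of all shared regions) ranked higher in every dexamethasone than in every ethanol library. Another 9 (6.47%, against 5.92%) ranked lower in every one. Both shares are near those of the whole series, so the counts do not set these genes apart. The mean rank of a region differed between treatments by a median of 3.72 percentile points in absolute size, against 4.44 over all shared regions. The 16 regions without overlap fell at 6 genes: FOSB, FOSL1, JUNB, JUND, ATF3 and MYC. None was at FOS, FOSL2, JUN or EGR1.

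The largest drop was at MYC, 24.5 kb downstream of the start, at 128772195 to 128773474 of chromosome 8. Its folds were 6.38, 7.67 and 6.79 with dexamethasone and 9.34, 9.82 and 8.97 with ethanol. The percentile ranks were 22.9, 36.4 and 31.2 against 60.0, 61.5 and 53.8. This region is 1280 bp wide, and its highest summits differed by up to 753 bp between libraries, so not every library had its maximum at the same place. Ranked by −log10 q the treatments also did not overlap there (means 52.3 and 70.4). Ranked by the mean fold of the peaks in the region they did overlap, at 21.9, 28.2 and 32.5 with dexamethasone and 61.8, 24.4 and 55.6 with ethanol, where ethanol replicate 2 fell among the dexamethasone libraries.

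The largest rise was at ATF3, 31.1 kb downstream, at 212769546 to 212770016 of chromosome 1. Folds were 6.47, 7.42 and 9.26 with dexamethasone and 4.93, 5.11 and 6.30 with ethanol, and the mean ranks were 39.6 and 12.2. Dexamethasone replicate 3 was the highest, while dexamethasone replicate 1 barely exceeded ethanol replicate 3. The separation held by −log10 q (means 33.8 and 7.5).

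At FOSB, 55.9 kb downstream, folds were 7.93, 8.70 and 9.61 with dexamethasone and 10.1, 10.7 and 11.3 with ethanol, and the ranks separated by −log10 q as well. A pair of JUND regions 92.9 and 98.7 kb upstream ranked lower with dexamethasone, with mean folds of 9.69 ± 1.39 against 12.1 ± 0.55 and 10.1 ± 2.26 against 12.3 ± 0.20 (SD, n = 3 each). An ATF3 region 95.1 kb upstream had 5.98 ± 0.62 against 7.42 ± 1.08. By −log10 q the treatments overlapped in these last 3 regions.

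At ATF3, the region 52.1 kb upstream also ranked lower with dexamethasone, with folds of 3.79, 4.10 and 4.13 against 4.56, 6.39 and 6.83. It was singled out after its values were seen. Its neighbour 51.2 kb upstream had a peak in 2 dexamethasone and all ethanol libraries. Close to a start, the separated region was at FOSL1, centred 1.09 kb inside the gene, with mean ranks of 20.8 with dexamethasone and 8.90 with ethanol. It too was chosen after its values were seen.

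Of the 16 regions, 8 were also without overlap when ranked by −log10 q. By that measure the balance differed: 8 of the 139 regions ranked higher in every dexamethasone library and 3 lower, together 7.91%, against 11.4% of all shared regions. By fold the 16 regions made up 11.5%, against 12.1%. The count of 16 depended on each library. It was 28, 30 and 39 without dexamethasone replicates 1, 2 and 3, and 40, 26 and 29 without ethanol replicates 1, 2 and 3. The share over all shared regions was then 20.9 to 24.6%, since fewer libraries have to be separated.

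**Figure D5:**
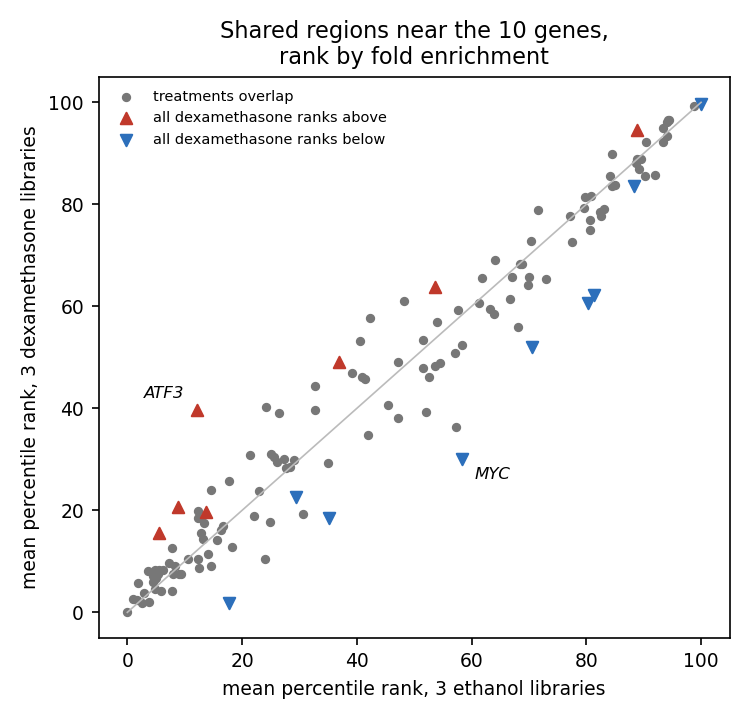
Each point is 1 of the 139 shared regions near the 10 genes, placed by its mean percentile rank by fold in the 3 ethanol libraries (x axis) and the 3 dexamethasone libraries (y axis), with the line of equality. Triangles mark the 16 regions whose ranks do not overlap between treatments, with the largest drop at MYC and the largest rise at ATF3 labelled.

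At the border of the windows, the outermost region inside was 79.4 kb (FOS) to 99.9 kb (ATF3) from the start. The nearest region outside was 100.6 kb (FOSB) to 115.4 kb (FOSL2) away.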

How the data were processed

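DNase-seq peak lists of 6 A549 libraries were used, 3 after dexamethasone and 3 after ethanol, grouped by their titles. Per the submitters' processing notes the build was hg19 and the tools were MACS2 2.1.0, bedtools, Bowtie and CASAVA 1.3, without settings. Each deposited list numbers its own peaks, so calling was per library as far as the files show. The deposited ratio is the fold enrichment of a peak in the layout MACS2 writes. The deposited p-value and q-value are given as −log10. The deposited score follows the −log10 q and was not used. The depth is unknown.

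Merging, calls and ranks were computed with pandas 2.3.3 and numpy 2.4.6 and checked on simulated peaks. Positions count from 1. The members, the gene lists and the windows were chosen with earlier results of these data known. Named regions were those at or nearest each start, those called in 3 libraries of 1 treatment and 0 or 1 of the other, the leading distal region (over 2.5 kb from the start, called in all 6) per gene, and the 6 shared regions with the largest rank difference without overlap. Other AP-1 genes were to be placed with an hg19 annotation, which was not used here. Promoter sequences came from RefSeq (GRCh38.p14) for 8 of the 10 genes. Also tried were lists of 1 length, peaks at −log10 q of 5 or more, a cover of at least 50%, gaps of 100 bp, joined summits, windows of 50 kb, region centres, other rank measures, a replicate block and leaving out each library.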

Additional observations from a re-analysis of the deposited data

How the results depend on the processing

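Among the alternatives, 62 values over all 10 windows stayed within 1.5 times the main count or 1 SD of the main difference, and 20 moved. Windows of 50 kb held 134 regions, of which 86 were called in all 6 libraries and 5 had ranks without overlap (5.81%, against 12.1% of all shared regions). With 1 library left out, dexamethasone-only regions numbered 1 to 4, ethanol-only regions 2 to 8, and regions with separated ranks 26 to 40. Over the whole series the shares were then 1.52 to 2.17%, 1.17 to 1.84% and, of shared regions, 20.9 to 24.6%. The difference in called regions over all windows, −4.33, then ranged from −8.17 to 2.67. The labels do not say whether equal numbers mark pairs, and the main counts treat the libraries as unpaired. Deviations of equally numbered libraries correlated at 0.1, 0.047 and 0.088 by calls and at 0.163, 0.092 and 0.114 by rank. Those of differently numbered libraries correlated at −0.078 to −0.014 by calls and at −0.131 to 0.005 by rank. Each library thus correlated best with its own number, and a shared batch or pairing was not tested. Under a replicate block there were 9 dexamethasone-only and 13 ethanol-only regions, called so in at least 2 of 3 numbered pairs and the reverse in none. In the same block 42 shared regions ranked the same way in all 3 pairs. The same block gave 4.47% and 4.8% of all merged regions for the first pair of counts and 29.1% of all shared regions for the last. Per gene, 139 of 140 differences in called regions stayed within 1 SD of the main value. The looser rules of the block and of the smaller sets of libraries can raise these counts by construction. Peak lists without counts leave the depth, and with it the power to call weak sites, unknown.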

Other observations

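The regions that hold a gene start ranked higher by −log10 q than by fold at all 9 genes that have one. Averaged over the 6 libraries and ranked among the regions called in all of them, the FOSL2 start was at percentile 70.3 by −log10 q and 16.3 by fold. For MYC the values were 55.3 and 8.6, and for EGR1 77.1 and 36.2. The gap was smallest at JUN, 78.6 against 64.1, or 14.6 points. Over all shared regions 45.9% ranked higher by −log10 q, and 16.2% had a gap at least as large as that at JUN. The order of these promoters by strength therefore depends on which of the deposited measures is read.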
